A study of Mus musculus with 12 samples.

Results

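The potassium channel genes of mouse brain myelin were taken as every row of the deposited table whose symbol begins with Kcn followed by a lower-case letter, which gave 95 of 21937 genes. They cover the pore-forming subunits of all large potassium channel families, the auxiliary subunits that carry Kcn symbols, 1 regulator gene (Kcnrg) and 1 antisense non-coding RNA (Kcnq1ot1). The RNA came from light membranes of the brain, a fraction rich in myelin, of wild type male c57Bl6/N mice, an inbred strain. The 12 samples fell into 4 ages with 3 samples each: days 18 and 75 after birth (P18 and P75), 6 months and 24 months. The ages follow myelin from its active formation through young and full adulthood to old age, and each age was compared with the one before it. All mice shared genotype, sex and strain, and the labels do not say whether each sample was 1 animal or a pool, so the p-values reflect only how these samples spread, which may be technical.

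Potassium channels are tetramers or dimers around a potassium-selective pore, and they set the resting potential, end the action potential and pace firing. In myelinated axons, Kv1 channels are held under the sheath beside the paranode and Kv7 channels lie at the node, while inward rectifiers of astrocytes and oligodendrocytes take up the potassium that firing axons release. Auxiliary subunits of the Kv beta, KChIP, KCNE and BK beta kinds bind to pore-forming subunits and change their gating or their traffic to the membrane.

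The membership rule works on symbols, so the coding sequences were searched for the signature of the potassium selectivity filter, the short stretch of the pore loop that strips water from the ion. The signature was read in frame as a run of codons for threonine or serine, then isoleucine, valine, leucine, methionine or threonine, then glycine, then tyrosine, phenylalanine or leucine, then glycine. Of the 95 genes, 77 held it and 18 did not, and 63 held it once, whereas 14 held it in 2 places. These 14 were the 14 members of the K2P (tandem pore domain) family, whose subunits each carry a pair of pore loops. The 18 genes without it were the 3 Kv beta genes, the 4 KChIP genes, the 5 KCNE genes, the 4 BK beta genes, Kcnrg and Kcnq1ot1, which has no coding sequence, and so the search separated pore-forming from auxiliary members. Of the 91 matches, 61 had a tyrosine codon in the middle of the glycine, aromatic and glycine triplet, 27 a phenylalanine codon and 3 a leucine codon. Of 19952 other genes of the table with a coding sequence, 280 (1.40%) held the signature. A match is a description of the letters and not a measurement of channel function.

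Within the signature, the sequences of the genes that carry the results below are alike because the search required it. Each is a window of 30 bases of coding sequence, 5′ to 3′ on the gene's own strand, from the GENCODE M21 transcripts of the mouse build GRCm38, and the capitals mark the codons of the glycine, aromatic or leucine, and glycine residues. The positions are those of the capitals, and for Kcnd2 and the first window of Kcnk1 they run across an intron because the codons are divided between exons. The deposited values were made on build mm9, and no coordinate was carried between builds.
Kcna1: tccatgaccactgtgGGATACGGTgacatg, on the minus strand at chr6:126642228-126642236
Kcnc1: accatgacgacactgGGCTATGGAgacatg, on the plus strand at chr7:46427979-46427987
Kcnd2: accatgacaacactgGGGTATGGCgacatg, on the plus strand at chr6:21217412-21714141
Kcng1: accatgacaaccgtaGGCTACGGAgacatg, on the minus strand at chr2:168262641-168262649
Kcns2: agtatgaccacagttGGGTACGGAgatgtg, on the plus strand at chr15:34839618-34839626
Kcnh5: agccttacaaccataGGATTTGGAaacata, on the minus strand at chr12:75087466-75087474
Kcnma1: acaatgtctacagtgGGTTATGGGgacgtt, on the minus strand at chr14:23528413-23528421
Kcnt1: actttctcaactgtgGGCTTCGGTgatgtg, on the plus strand at chr2:25894373-25894381
Kcnj3: accgaggccaccatcGGCTATGGCtaccgc, on the plus strand at chr2:55437633-55437641
Kcnj9: acggagaccaccatcGGCTATGGGcaccgg, on the minus strand at chr1:172326184-172326192
Kcnj10: tcccagaccaccatcGGCTATGGCttccgc, on the plus strand at chr1:172369308-172369316
Kcnj13: acacaacttacaattGGTTATGGTaccatg, on the minus strand at chr1:87389021-87389029
Kcnk1, first pore loop: gtgctctccaccacaGGCTATGGCcacacg, on the plus strand at chr8:125995814-126025019
Kcnk1, second pore loop: tccctgagcaccatcGGCCTGGGGgactat, on the plus strand at chr8:126025335-126025343
The Kv, BK and Slack genes shown, Kcnt1 included, carry an acidic codon (gac or gat) after the capitals apart from Kcnh5, which has aac. The inward rectifiers Kcnj3, Kcnj9, Kcnj10 and Kcnj13 have another codon there. The first pore loop of Kcnk1 has the tyrosine codon and the second the leucine codon.

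Depth in genes was 20299052 to 27214385 reads per sample, and between 86 and 91 of the channel genes had at least 1 read in a sample. Only genes with a value of 10 or more in 3 samples or more were tested, as 77 of the 95 channel genes had. The tested value is the normalised read count on a log2 scale after adding 1, so folds of low genes are understated. Kcnk9 passed this filter through 1 age alone, so its fold changes were bound to differ and are given as description, though it is counted among the calls. P18 replicate 3 stood apart from the other P18 samples in several channel genes, such as Kcnj10 and Kcnt1, and counts without it are given below. Of 12 markers of mature oligodendrocytes all were read, and none of the 9 marker lists used (among them neurons, astrocytes, microglia, endothelium and choroid plexus) had a gene at 0 in all samples. In this bulk RNA, fewer cells of a type and less RNA per cell cannot be told apart.

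The channel genes together took up a larger share of the RNA at 6 and 24 months than at P18 and P75. Their summed share of all normalised counts was 0.191 ± 0.0225% in P18 samples, 0.244 ± 0.00453% in P75 samples, 0.332 ± 0.0269% in 6 month samples and 0.316 ± 0.0257% in 24 month samples (SD, n = 3). Every P75 sample lay above every P18 sample and every 6 month sample above every P75 sample, whereas the samples of 6 and 24 months overlapped. Mbp, the most abundant myelin transcript, takes a share of the reads that differs between ages, so the same share was computed over all other genes. It was then 0.224 ± 0.0133%, 0.259 ± 0.00587%, 0.354 ± 0.0231% and 0.337 ± 0.0235% at the 4 ages in the same order, with the same order of samples between ages. No test was made of a sum over genes.

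**Figure D1:**
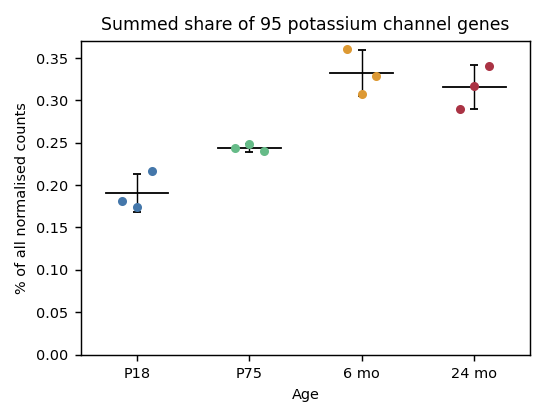
Summed share of the 95 potassium channel genes in all normalised counts (y axis, %) in each sample by age (x axis); points are samples, lines the mean and bars the SD of 3 samples. The P18 mean was 0.191%, the P75 mean 0.244%, the 6 month mean 0.332% and the 24 month mean 0.316%.

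At P75 against P18, 27 of the 77 tested channel genes rose and 4 fell (limma, adjusted p under 0.05 over all 14987 tested genes). Over all tested genes, 21.7% rose and 18.7% fell, 40.4% in either direction. The share of tested channel genes called, in either direction, was near this background. The median log2 fold change was 0.27 over the channel genes and 0.017 over all tested genes.

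At 6 months against P75, 53 channel genes rose and 7 fell. The background was 27.1% of all tested genes higher and 25.4% lower, 52.4% in either direction. The median log2 fold change was 0.59 for channel genes and 0.0029 for all genes. In 67 of the 77 channel genes (87%) the 3 samples at 6 months did not overlap with the 3 at P75, and over all tested genes this held for 62.3%. Between P18 and P75, samples did not overlap in 30 channel genes (39%) and in 47.1% of all tested genes. Between 6 and 24 months, this held for 32 channel genes (41.6%) and for 43.2% of all tested genes.

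At 24 months against 6 months, 6 channel genes rose and 9 fell. The background was 10.8% higher and 8.34% lower, 19.2% in either direction. The medians were -0.028 over channel genes and 0.030 over all genes. The split was 5 higher and 12 lower with quantile normalization, 9 and 9 in edgeR and 8 and 10 in DESeq2. It was 2 higher and 1 lower without 6 months replicate 1, and 3 and 1 without 24 months replicate 1. The total of 15 moved by over 1.5 times with the processing. Leaving out 6 months replicate 1 or 2 gave 3 and 7 calls, leaving out 24 months replicate 1 or 2 gave 4 and 7, and leaving out P18 replicate 3, or fitting these 2 ages alone, gave 25. Only Kcnn2, Kcnq1ot1 and Kcng1 kept their 24 month call in all 25 alternatives run.

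Across the 4 ages, 73 of the 77 channel genes differed (limma F test), against a background of 77.4%. The 4 that did not pass were Kcnip4, Kcnk6, Kcnh7 and Kcnrg. Of the 73, P18 held the lowest mean of 50 (68.5%), P75 of 19 (26.0%), 6 months of 3 (4.11%) and 24 months of 1 (1.37%). Among all genes that differed, the lowest mean was at P18 in 36.4%, at P75 in 17.1%, at 6 months in 27.6% and at 24 months in 18.9%. The highest mean of the channel genes belonged to P18 for 2 (2.74%), to P75 for 3 (4.11%), to 6 months for 38 (52.1%) and to 24 months for 30 (41.1%). Over all genes these shares of highest means were 33.7% for P18, 17.7% for P75, 22.6% for 6 months and 26.0% for 24 months. The 2 channel genes highest at P18 were Kcne1l and Kcnu1.

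**Figure D2:**
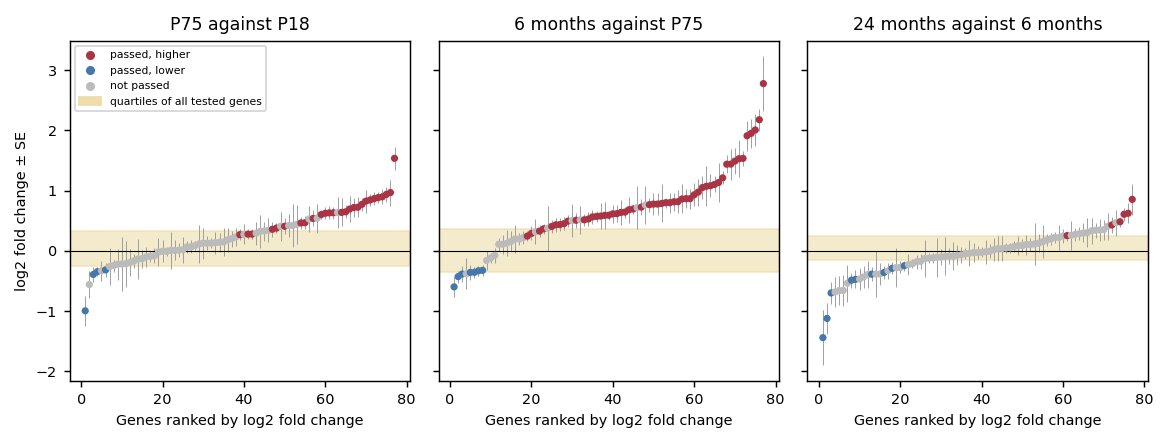
Log2 fold change with its standard error (y axis) of each of the 77 tested channel genes, ranked (x axis), in each comparison of consecutive ages; red and blue points passed as higher and lower, grey points did not pass, and the band runs from the lower to the upper quartile of all tested genes. The points lie above the band for many genes at 6 months against P75, where 53 rose, and mostly inside or near it at 24 months against 6 months, where 6 rose and 9 fell.

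**Figure D3:**
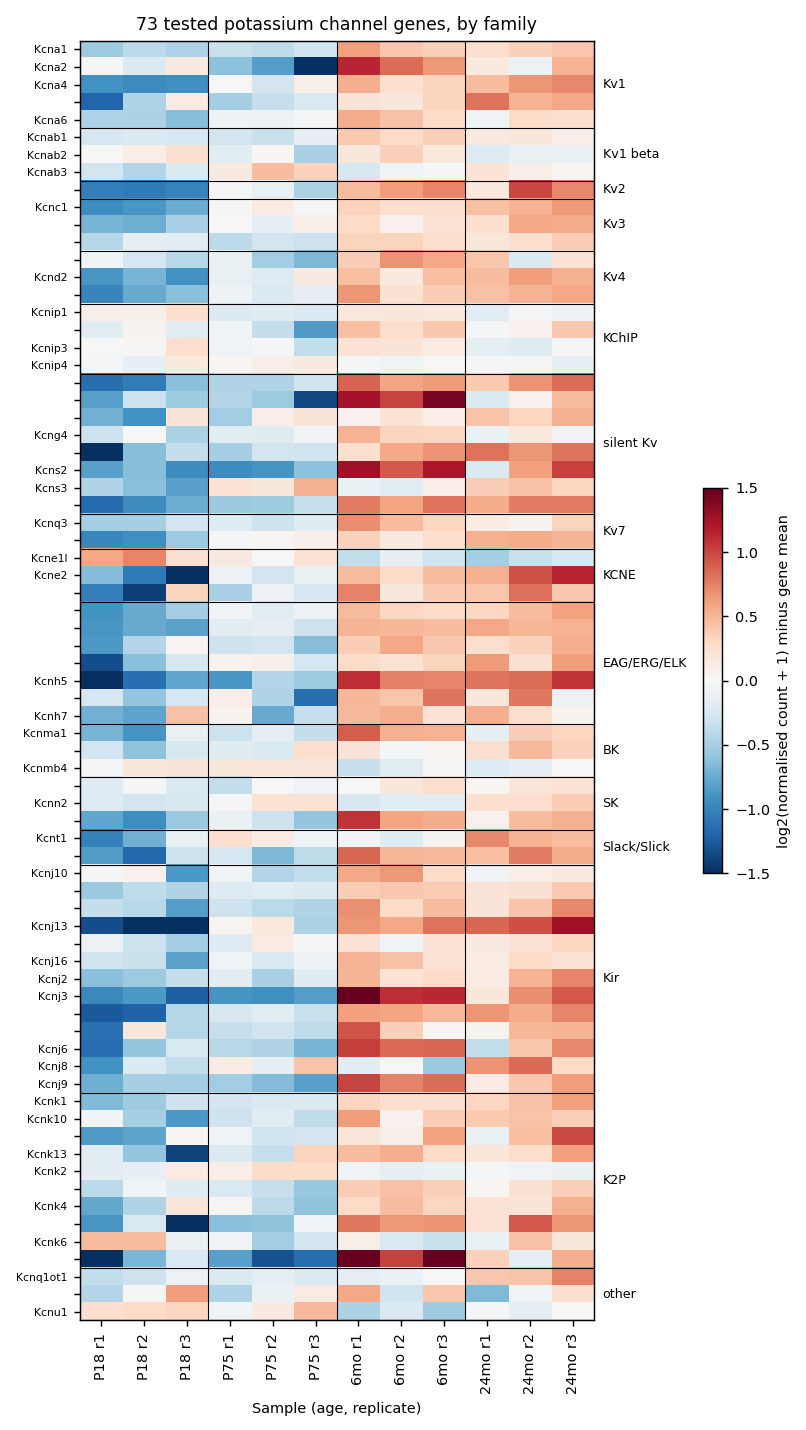
Of the 77 tested channel genes, 73 (rows, grouped by family, with some genes named and 4 not drawn) in each of the 12 samples (columns, by age and replicate); colour is log2 of the normalised count plus 1, minus the gene's mean over samples, with values beyond 1.5 either way shown in the end colour. Most rows are blue at P18 and red at 6 and 24 months, with Kcne1l and Kcnu1 among those that run the other way.

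Pore-forming genes made up most of the tested genes, 63 of 77, and most of the rises. Of the 63 tested genes with the filter signature, 25 rose and 1 fell at P75, 47 rose and 4 fell at 6 months, and 5 rose and 6 fell at 24 months. Of the 14 tested genes without it, 2 rose and 3 fell at P75, 6 rose and 3 fell at 6 months, and 1 rose and 3 fell at 24 months. The difference between these kinds was not tested. Counts by kind, family or list are to be read beside the shares of all tested genes called in either direction. These were 40.4% at P75, 52.4% at 6 months and 19.2% at 24 months.

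Kv1 (Shaker) alpha genes, among them those of the juxtaparanodal channels, were higher at 6 months. All 5 tested Kv1 alpha genes rose at 6 months, 2 rose and 1 fell at P75, and none passed at 24 months. Kcna1 had 1946, 2159 and 2043 normalised counts in the P18 samples, 2247, 2165 and 2302 in the P75 samples, 4332, 3754 and 3625 in those of 6 months and 3353, 3632 and 3739.7 in those of 24 months. This gene, which encodes the delayed rectifier under the myelin beside the paranode, was close in its P18 and P75 samples and higher in every sample of 6 and 24 months. It rose at 6 months by 0.80 ± 0.09 (SE, limma adjusted p = 2.05e-06) on the log2 scale. Kcna6 had 1050.4, 1036 and 928 normalised counts in the P18 samples, 1373, 1363 and 1414 in the P75 samples, 2122, 1964 and 1768 in those of 6 months and 1379, 1745 and 1725 in those of 24 months. Kcna6, another delayed rectifier subunit, rose at P75 by 0.46 ± 0.10 (SE, limma adjusted p = 0.0015) and at 6 months by 0.49 ± 0.10 (SE, limma adjusted p = 0.000603), with no overlap between the samples in either step. Its 24 month value, -0.28 ± 0.10 (SE, limma adjusted p = 0.0604), did not pass. This value passed when P18 replicate 3 or 6 months replicate 3 was left out or with scaling to the total without Mbp (log2 fold change -0.35 to -0.28, adjusted p 0.0348 to 0.046). Kcna4 had 254, 247 and 252 normalised counts in the P18 samples, 476, 397 and 511 in the P75 samples, 700.3, 564 and 604 in those of 6 months and 665, 759 and 788 in those of 24 months. Kcna4, whose channel inactivates fast and lies in axons, rose by 0.87 ± 0.11 (SE, limma adjusted p = 2.08e-05) at P75 and by 0.43 ± 0.11 (SE, limma adjusted p = 0.00363) at 6 months, again without overlap.

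Kcna2, the usual partner of Kcna1 in axons, had low values. Kcna2 had 42.8, 37.3 and 48.2 normalised counts in the P18 samples, 28.1, 24.1 and 13.3 in the P75 samples, 97.5, 79 and 69.1 in those of 6 months and 48.5, 41.1 and 62.9 in those of 24 months. Its P75 samples lay below all others and its 6 month samples above all others. It fell at P75 by 1.0 ± 0.25 (SE, limma adjusted p = 0.00501) and rose at 6 months by 1.91 ± 0.25 (SE, limma adjusted p = 1.38e-05). The 24 month value of Kcna2, -0.68 ± 0.25 (SE, limma adjusted p = 0.0669), did not pass. This value passed when P75 replicate 3 was left out, with quantile normalization, in edgeR, in DESeq2 or in a fit of the 2 ages alone (log2 fold change -0.80 to -0.67, adjusted p 0.0203 to 0.0349). Per kilobase of merged exon, Kcna2 averaged 4.14 normalised counts over the 12 samples and Kcna1 615. The exon lengths are those of GENCODE M21 and not of the annotation behind the deposited counts, so the size of this gap is uncertain. Kcna5, a delayed rectifier also found in glia, rose at 6 months by 0.59 ± 0.23 (SE, limma adjusted p = 0.0395). That call of Kcna5 ended when P75 replicate 1, 2 or 3 or 6 months replicate 1, 2 or 3 was left out, without the filter on low values or with quantile normalization (log2 fold change 0.51 to 0.66, adjusted p 0.0518 to 0.115).

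Kv beta subunits, which bind Kv1 channels from the cytoplasm, did not move as one. Kcnab1 had 2165, 2212 and 2171 normalised counts in the P18 samples, 2119, 2045 and 2360.2 in the P75 samples, 3386, 3139 and 3287 in those of 6 months and 2820.4, 2884 and 2749 in those of 24 months. Kcnab1 overlapped between P18 and P75, was highest in all 3 samples of 6 months, and rose there by 0.59 ± 0.08 (SE, limma adjusted p = 1.18e-05). Its 24 month value, -0.21 ± 0.08 (SE, limma adjusted p = 0.0596), did not pass. This value passed when P18 replicate 3 or P75 replicate 3 was left out, with scaling to the total without Mbp, in DESeq2, in a fit of the 2 ages alone or with the GC trend removed (log2 fold change -0.25 to -0.21, adjusted p 0.0118 to 0.0479). Kcnab2 had 5858, 6239 and 6875 normalised counts in the P18 samples, 5237, 5977 and 4154 in the P75 samples, 6563, 7468 and 6521 in those of 6 months and 5119.7, 5415 and 5458 in those of 24 months. Kcnab2, the beta subunit that helps carry Kv1 channels to the axon, had the highest mean of all 95 genes. It fell at P75 by 0.32 ± 0.12 (SE, limma adjusted p = 0.038), rose at 6 months by 0.43 ± 0.12 (SE, limma adjusted p = 0.005) and fell at 24 months by 0.36 ± 0.12 (SE, limma adjusted p = 0.04). The P75 call ended when P18 replicate 2 or 3, P75 replicate 1 or 3 or 24 months replicate 2 was left out, without the filter on low values, with quantile normalization or in a fit of the 2 ages alone (log2 fold change -0.34 to -0.17, adjusted p 0.0509 to 0.217). The log2 fold change of Kcnab2 was -0.17 without P75 replicate 3 (adjusted p = 0.217). At 24 months its call ended when 6 months replicate 1, 2 or 3 or 24 months replicate 1, 2 or 3 was left out or without the filter on low values (log2 fold change -0.39 to -0.30, adjusted p 0.0538 to 0.146). Kcnab3 had 1377, 1226 and 1447 normalised counts in the P18 samples, 1831, 2303 and 2117 in the P75 samples, 1409, 1592 and 1636 in those of 6 months and 1929, 1767 and 1704 in those of 24 months. Kcnab3, the third beta subunit, had its highest mean at P75, where the samples overlapped with those of 24 months, rising there by 0.62 ± 0.10 (SE, limma adjusted p = 0.000136) and falling at 6 months by 0.43 ± 0.10 (SE, limma adjusted p = 0.00183).

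The proteins that hold Kv1 channels in place were followed through a list of the juxtaparanodal complex and node anchors, of which 13 of 15 genes were tested. At P75, 7 rose and 2 fell, at 6 months 9 rose, and at 24 months 1 rose and 1 fell. The median log2 fold changes were 0.33, 0.34 and -0.0127 in the 3 steps. Over all tested genes, the medians were 0.017, 0.0029 and 0.030, and 40.4%, 52.4% and 19.2% were called in either direction. Cntn2, the adhesion protein that joins the sheath to the axon at the juxtaparanode, rose by 0.84 ± 0.13 (SE, limma adjusted p = 8.21e-05) at P75 and 0.61 ± 0.13 (SE, limma adjusted p = 0.00078) at 6 months. Lgi2 and Adam23, a secreted ligand and its membrane receptor in the Kv1 complex, rose by 1.17 and 0.69 at P75 (limma adjusted p = 3.61e-05 and 1.23e-05). Lgi4, another member of that ligand family, rose by 0.73 at P75 and 0.62 at 6 months (limma adjusted p = 0.000333 and 0.000807).

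Kv2 (Shab) channels are delayed rectifiers of the soma and proximal dendrite. Kcnb2, a Kv2 gene, rose by 0.82 at P75 and 0.82 at 6 months (limma adjusted p = 0.00281 and 0.0021).

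Silent Kv subunits form no channel alone and join Kv2 subunits to alter their gating. Of 8 tested, 3 rose at P75, 6 rose and 1 fell at 6 months, and 1 rose and 2 fell at 24 months. Kcns2 had 45.1, 50.9 and 41.2 normalised counts in the P18 samples, 41.1, 42.6 and 51.96 in the P75 samples, 194, 152 and 187 in those of 6 months and 68.4, 123 and 164 in those of 24 months. The P18 and P75 samples of Kcns2 overlapped, and all 3 samples at 6 months lay far above, a rise of 1.95 ± 0.24 (SE, limma adjusted p = 6.54e-06). The 24 month samples of Kcns2 were spread widely and overlapped with those of 6 months, and the value, -0.66 ± 0.24 (SE, limma adjusted p = 0.0613), did not pass. It passed when P18 replicate 3 or 24 months replicate 3 was left out or with quantile normalization (log2 fold change -0.94 to -0.66, adjusted p 0.0156 to 0.0422). Kcns3 had 149, 131 and 116 normalised counts in the P18 samples, 236, 229 and 294 in the P75 samples, 190.1, 182 and 218 in those of 6 months and 263, 277 and 255 in those of 24 months. Kcns3 rose at P75 by 0.94 ± 0.13 (SE, limma adjusted p = 3.81e-05), fell at 6 months by 0.36 ± 0.13 (SE, limma adjusted p = 0.0279) and rose at 24 months by 0.43 ± 0.13 (SE, limma adjusted p = 0.0296), with no overlap at any step. The 6 month call of Kcns3 ended when P75 replicate 3 or 6 months replicate 1 or 2 was left out (log2 fold change -0.34 to -0.25, adjusted p 0.0791 to 0.143). Its 24 month call ended when 6 months replicate 1 or 2 or 24 months replicate 1 or 2 was left out, with quantile normalization or with the length trend removed (log2 fold change 0.38 to 0.43, adjusted p 0.0511 to 0.109).

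A further pair of silent subunits had their peak at 6 months. Kcng1 had 21.4, 30.5 and 26.1 normalised counts in the P18 samples, 28.1, 25.96 and 14.4 in the P75 samples, 92.6, 78.1 and 104 in those of 6 months and 32.7, 40.01 and 53.7 in those of 24 months. Kcng1, named after its values were seen because its mean lay under 50, rose at 6 months by 2.0 ± 0.26 (SE, limma adjusted p = 1.05e-05) and fell at 24 months by 1.12 ± 0.26 (SE, limma adjusted p = 0.00859). Its 6 month samples did not overlap with those of any other age. Kcng4 had 442, 550.3 and 398 normalised counts in the P18 samples, 489, 484 and 533 in the P75 samples, 788, 697 and 689.9 in those of 6 months and 516, 615 and 532 in those of 24 months. Kcng4, whose 6 month samples lay above those of all other ages, rose at 6 months by 0.53 ± 0.11 (SE, limma adjusted p = 0.00112) and fell at 24 months by 0.39 ± 0.11 (SE, limma adjusted p = 0.0282). For Kcng4 the 24 month call ended when 6 months replicate 1 or 2 or 24 months replicate 1 or 3 was left out (log2 fold change -0.41 to -0.33, adjusted p 0.0593 to 0.12). Kcnf1 and Kcnv1 rose in both early steps, by 0.54 and 0.47 at P75 (limma adjusted p = 0.00404 and 0.00299) and by 1.10 and 1.21 at 6 months (limma adjusted p = 5.63e-06 and 4.90e-07).

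The Kv3 (Shaw) channels repolarise fast and let neurons fire at high rates. Kcnc1 had 1832, 1919 and 2097 normalised counts in the P18 samples, 3552, 3807 and 3423 in the P75 samples, 4452, 4161 and 4151 in those of 6 months and 4739, 5016 and 5468 in those of 24 months. Every P75 sample of Kcnc1 lay far above every P18 sample, a rise of 0.88 ± 0.08 (SE, limma adjusted p = 1.62e-06). It rose again at 6 months by 0.24 ± 0.08 (SE, limma adjusted p = 0.0235) and at 24 months by 0.25 ± 0.08 (SE, limma adjusted p = 0.0474), with no overlap at any step. The 6 month call of Kcnc1 ended when P75 replicate 1 or 3 or 6 months replicate 1 was left out, with the length trend removed or with the GC trend removed (log2 fold change 0.11 to 0.24, adjusted p 0.0556 to 0.255). The log2 fold change of Kcnc1 was 0.11 with the length trend removed (adjusted p = 0.255). At 24 months its call ended when P18 replicate 1 or 2, P75 replicate 1 or 2, 6 months replicate 1, 2 or 3 or 24 months replicate 1, 2 or 3 was left out, without the filter on low values or with scaling to the total without Mbp (log2 fold change 0.20 to 0.30, adjusted p 0.0521 to 0.162). Kcnc2 rose at P75 by 0.63 (limma adjusted p = 0.000162) and Kcnc4 at 6 months by 0.64 (limma adjusted p = 2.32e-05).

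**Figure D4:**
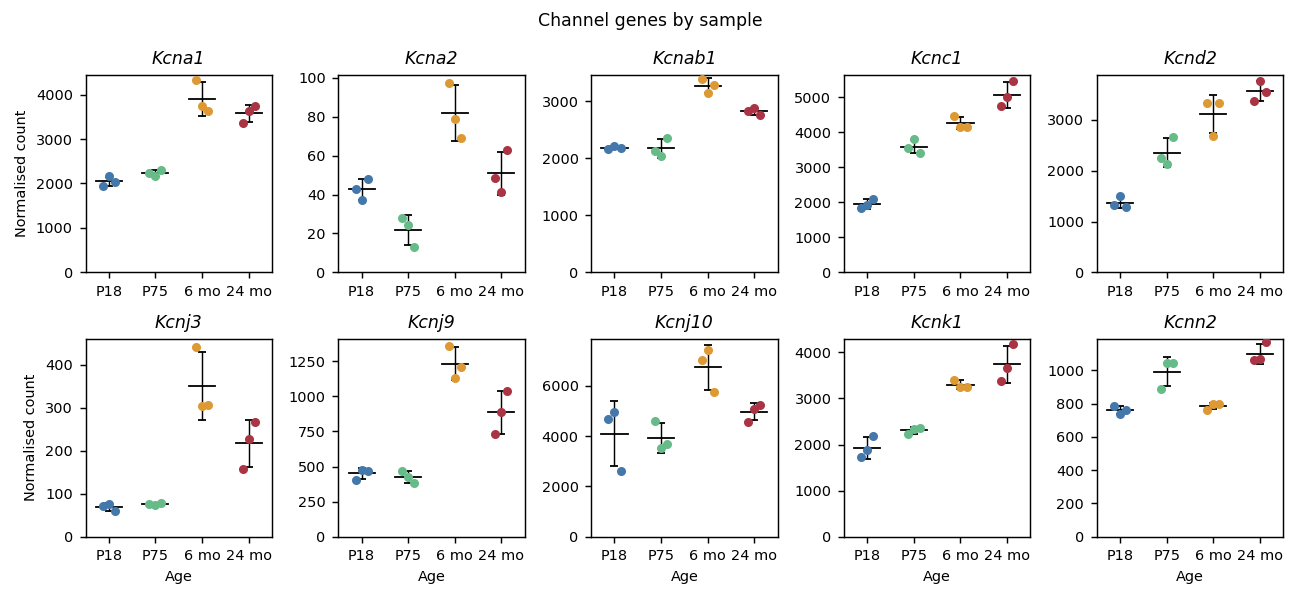
Normalised counts (y axis, each panel with its own scale from 0) of 10 channel genes in each sample by age (x axis); points are samples, lines the mean and bars the SD of 3 samples. Kcnj3 and Kcnj9 had overlapping samples at P18 and P75 and were highest at 6 months, Kcnc1, Kcnd2 and Kcnk1 were lowest at P18 and highest at 24 months, and Kcnn2 alternated between ages.

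Kv4 (Shal) channels carry the fast transient current of dendrites, and KChIP proteins are partners of their pore subunits. Of 3 tested Kv4 genes, 2 rose at P75 and 3 at 6 months, and none passed at 24 months. Of 4 tested KChIP genes, 1 fell at P75, 3 rose at 6 months, and 2 fell at 24 months. No difference between Kv4 and KChIP genes was tested. Kcnd2 had 1327, 1501 and 1295 normalised counts in the P18 samples, 2255, 2132 and 2671 in the P75 samples, 3331, 2690.4 and 3327 in those of 6 months and 3376, 3768 and 3541 in those of 24 months. Kcnd2 was higher at each age than at the one before up to 24 months, with no overlap, and rose by 0.77 ± 0.11 (SE, limma adjusted p = 3.55e-05) at P75 and 0.40 ± 0.11 (SE, limma adjusted p = 0.0041) at 6 months. Its 24 month step, 0.20 ± 0.11 (SE, limma adjusted p = 0.193), did not pass. Kcnd3 rose by 0.65 at P75 and 0.56 at 6 months (limma adjusted p = 0.000239 and 0.000476). Kcnip4 had 2322, 2183 and 2634 normalised counts in the P18 samples, 2418, 2547 and 2602 in the P75 samples, 2328, 2266 and 2376 in those of 6 months and 2325, 2351 and 2177 in those of 24 months. Kcnip4, a calcium sensor of the KChIP family that binds Kv4 channels, did not pass at any age (limma F test, adjusted p = 0.381), and its samples spanned a narrow range. Kcnip1 had 790.2, 784 and 891 normalised counts in the P18 samples, 643, 656 and 638 in the P75 samples, 835, 837 and 823 in those of 6 months and 667, 729 and 708 in those of 24 months. Kcnip1 fell at P75 by 0.35 ± 0.08 (SE, limma adjusted p = 0.00268), rose at 6 months by 0.37 ± 0.08 (SE, limma adjusted p = 0.00119) and fell at 24 months by 0.25 ± 0.08 (SE, limma adjusted p = 0.0413), each without overlap. The 24 month call of Kcnip1 ended when 6 months replicate 1, 2 or 3 or 24 months replicate 1, 2 or 3 was left out (log2 fold change -0.28 to -0.21, adjusted p 0.0731 to 0.135).

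Kcnip3 had 2239.9, 2242 and 2652 normalised counts in the P18 samples, 2129, 2183 and 1719 in the P75 samples, 2572, 2546 and 2412 in those of 6 months and 2002, 1967 and 2187 in those of 24 months. Kcnip3, also known as a transcriptional repressor, was lower in all P75 than in all P18 samples, a fold change that did not pass (-0.25, limma adjusted p = 0.0586), and it rose at 6 months by 0.33 ± 0.10 (SE, limma adjusted p = 0.011) and fell at 24 months by 0.29 ± 0.10 (SE, limma adjusted p = 0.0495). At P75, Kcnip3 passed as lower when P75 replicate 2 was left out, with TMM scaling or in edgeR (log2 fold change -0.31 to -0.25, adjusted p 0.0382 to 0.0496). The 6 month call ended when P75 replicate 3 was left out (0.22, adjusted p = 0.0694). For Kcnip3 the 24 month call ended when P18 replicate 1 or 2, P75 replicate 1 or 2, 6 months replicate 1, 2 or 3 or 24 months replicate 1, 2 or 3 was left out, with a pseudocount of 0.5, without the filter on low values, with quantile normalization, with TMM scaling or in edgeR (log2 fold change -0.34 to -0.26, adjusted p 0.0501 to 0.157). A list of other channel subunits and partners without Kcn symbols held 12 tested genes, of which 6 rose at P75, 9 rose at 6 months, and 1 rose and 1 fell at 24 months. Dpp10 and Dpp6 encode transmembrane partners of Kv4. Dpp10 rose by 0.96 at P75 and 0.58 at 6 months, and Dpp6 by 1.28 at 6 months (limma adjusted p = 2.89e-06, 0.000141 and 2.65e-07). Amigo1, an adhesion protein that binds Kv2, rose by 0.90 and 0.51 in these steps (limma adjusted p = 9.75e-06 and 0.00072).

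Kv7 channels carry the M-current, which holds back repetitive firing, and some of them sit at nodes of Ranvier. Kcnq3 had 91.5, 92.7 and 107 normalised counts in the P18 samples, 114, 106 and 115 in the P75 samples, 213, 181 and 164 in those of 6 months and 142, 136 and 165 in those of 24 months. Kcnq3, an M-current subunit, rose at 6 months by 0.73 ± 0.13 (SE, limma adjusted p = 0.000288), without overlap. Kcnq5 rose at P75 by 0.84 (limma adjusted p = 1.40e-05). Kcnq1, the cardiac and epithelial member, was left out by the filter, with values of 1.85 to 6.81.

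Of the EAG, ERG and ELK subunits, 7 were tested, 3 rose at P75, 5 rose at 6 months, and none passed at 24 months. Kcnh5 had 16.6, 22.6 and 29.1 normalised counts in the P18 samples, 27.1, 37.1 and 34.3 in the P75 samples, 110.5, 86.1 and 84.7 in those of 6 months and 89.2, 90.8 and 107 in those of 24 months. Kcnh5, an EAG channel subunit, had every 6 month sample above every P75 sample and rose by 1.49 ± 0.21 (SE, limma adjusted p = 2.52e-05). Kcnh1 and Kcnh2, an EAG and an ERG subunit, rose at both early steps, by 0.63 and 0.60 at P75 (limma adjusted p = 0.000228 and 3.00e-05) and by 0.45 and 0.69 at 6 months (limma adjusted p = 0.00216 and 4.04e-06). Kcnh3, an ELK subunit, rose at 6 months by 0.87 (limma adjusted p = 0.000367). Kcnh7 had 14.3, 13.6 and 33.1 normalised counts in the P18 samples, 25.1, 13.9 and 18.8 in the P75 samples, 34.1, 35.5 and 28.2 in those of 6 months and 35.7, 29.2 and 24.99 in those of 24 months. Kcnh7, an ERG subunit, did not pass in any comparison, and its log2 fold change at 6 months was 0.76 ± 0.31 (SE, limma adjusted p = 0.0514). It passed as higher at 6 months when P18 replicate 1, 2 or 3 or P75 replicate 1 was left out, with a pseudocount of 5, in edgeR, in a fit of the 2 ages alone or with the GC trend removed (log2 fold change 0.65 to 0.96, adjusted p 0.0156 to 0.0463). For any age, Kcnh7 passed when P18 replicate 3 or P75 replicate 1 was left out (adjusted p 0.00265 to 0.0355).

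Calcium-activated channels limit firing after calcium has entered. Kcnma1 had 89.1, 77.96 and 135 normalised counts in the P18 samples, 116, 132 and 113 in the P75 samples, 273, 211 and 209 in those of 6 months and 133, 188 and 181 in those of 24 months. Kcnma1, the BK pore subunit, rose at 6 months by 0.93 ± 0.19 (SE, limma adjusted p = 0.00064) without overlap. Its 24 month samples lay below those of 6 months, with a log2 fold change of -0.47 ± 0.19 (SE, limma adjusted p = 0.0893) that did not pass. This value of Kcnma1 passed when P18 replicate 3 was left out or in a fit of the 2 ages alone (log2 fold change -0.47, adjusted p 0.029 to 0.0352). Kcnmb4 had 772, 885 and 896 normalised counts in the P18 samples, 885, 889 and 891 in the P75 samples, 619, 700.3 and 769.7 in those of 6 months and 689.5, 719 and 780.3 in those of 24 months. Kcnmb4, the brain BK beta subunit, moved the other way and fell at 6 months by 0.36 ± 0.09 (SE, limma adjusted p = 0.0047), with all P75 samples above all those of 6 months. Kcnmb2, another beta subunit, did not pass in any step.

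Kcnn2 had 784, 739 and 760.4 normalised counts in the P18 samples, 889, 1043 and 1042 in the P75 samples, 763, 798 and 797 in those of 6 months and 1062, 1067 and 1168 in those of 24 months. This SK channel gene, whose product gives the pause after a spike, was higher at P75 and 24 months than at P18 and 6 months, without overlap at any step. Kcnn2 rose by 0.38 ± 0.08 (SE, limma adjusted p = 0.00205) at P75, fell by 0.33 ± 0.08 (SE, limma adjusted p = 0.00359) at 6 months and rose by 0.48 ± 0.08 (SE, limma adjusted p = 0.00196) at 24 months. Kcnn3, another SK subunit, rose at 6 months by 1.08 (limma adjusted p = 0.000193). Sodium-activated channels answer to sodium entry in the same way. Kcnt1 had 796, 976 and 1488 normalised counts in the P18 samples, 1923, 1753 and 1544 in the P75 samples, 1569, 1417 and 1678 in those of 6 months and 2663, 2309 and 2215 in those of 24 months. Kcnt1 (Slack) rose at P75 by 0.72 ± 0.16 (SE, limma adjusted p = 0.0022) and at 24 months by 0.62 ± 0.16 (SE, limma adjusted p = 0.016), while its 6 month samples overlapped with those of P75. For Kcnt1 the 24 month call ended when 6 months replicate 1 or 2 or 24 months replicate 1 was left out (log2 fold change 0.54 to 0.63, adjusted p 0.0525 to 0.071). Kcnt2 (Slick) rose at 6 months by 1.05 (limma adjusted p = 0.000331).

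Kcnu1 had 78.4, 81.3 and 82.4 normalised counts in the P18 samples, 63.1, 72.3 and 92.9 in the P75 samples, 47.1, 56.8 and 44.8 in those of 6 months and 64.4, 59.5 and 65.7 in those of 24 months. Kcnu1 encodes the pH-sensitive Slo3 channel known from sperm, and it was low in all samples. It fell at 6 months by 0.60 ± 0.17 (SE, limma adjusted p = 0.0066), and every P75 sample lay above every 6 month sample.

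Inward rectifiers pass potassium into cells more easily than out, and of 13 tested 4 rose at P75, 11 rose at 6 months, and 1 rose and 2 fell at 24 months. Kcnj10 had 4689, 4965 and 2608 normalised counts in the P18 samples, 4617, 3508 and 3682 in the P75 samples, 7026, 7436 and 5732 in those of 6 months and 4577, 5086 and 5231 in those of 24 months. Kcnj10, the glial inward rectifier that buffers potassium in astrocytes and oligodendrocytes, had 1 low P18 sample, replicate 3. It rose at 6 months by 0.78 ± 0.19 (SE, limma adjusted p = 0.00226), and its 24 month samples lay below all 6 month samples with a log2 fold change of -0.43 ± 0.19 (SE, limma adjusted p = 0.108) that did not pass. This value of Kcnj10 passed when P18 replicate 3 was left out or in a fit of the 2 ages alone (log2 fold change -0.43, adjusted p 0.00748 to 0.00845). Kcnj16 had 579.9, 566 and 409.8 normalised counts in the P18 samples, 686, 610.1 and 677 in the P75 samples, 1016, 970.2 and 827 in those of 6 months and 779.6, 879 and 827 in those of 24 months. Kcnj16, its partner subunit in glia, rose at P75 by 0.36 ± 0.12 (SE, limma adjusted p = 0.0274) and at 6 months by 0.51 ± 0.12 (SE, limma adjusted p = 0.00237), without overlap in either step. The P75 call of Kcnj16 ended when P18 replicate 3 or P75 replicate 1 or 3 was left out, in a fit of the 2 ages alone or with the GC trend removed (log2 fold change 0.20 to 0.36, adjusted p 0.063 to 0.127). The log2 fold change of Kcnj16 was 0.20 without P18 replicate 3 (adjusted p = 0.127). Of 10 astrocyte markers, 3 rose and 2 fell at P75, 3 rose and 1 fell at 6 months, and 2 rose at 24 months. Of 12 mature oligodendrocyte markers, 1 rose and 7 fell at P75, 2 rose at 6 months, and 2 fell at 24 months. Over all tested genes, the shares called in either direction in these steps were 40.4%, 52.4% and 19.2%. The part of either cell type in these results was not tested.

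The G protein-gated inward rectifiers, through which inhibitory transmitters slow neurons, rose together at 6 months. Kcnj3 had 71.3, 76.8 and 59.3 normalised counts in the P18 samples, 75.2, 73.2 and 78.5 in the P75 samples, 441, 304 and 307 in those of 6 months and 158, 227 and 267 in those of 24 months. The P18 and P75 samples of Kcnj3 overlapped, and each 6 month sample was several times above them, a rise of 2.18 ± 0.19 (SE, limma adjusted p = 2.65e-07). It fell at 24 months by 0.70 ± 0.19 (SE, limma adjusted p = 0.0169) and stayed above the P75 samples. The 24 month call of Kcnj3 ended when 6 months replicate 1 or 24 months replicate 1 was left out (log2 fold change -0.52 to -0.49, adjusted p 0.0854 to 0.0975). Kcnj9 had 406, 476 and 469 normalised counts in the P18 samples, 468, 428 and 381 in the P75 samples, 1363, 1133 and 1208 in those of 6 months and 733, 889 and 1038 in those of 24 months. Kcnj9 followed the same course, with a rise of 1.53 ± 0.12 (SE, limma adjusted p = 1.53e-07) at 6 months and a fall of 0.49 ± 0.12 (SE, limma adjusted p = 0.0129) at 24 months. For Kcnj9 this last call ended when 6 months replicate 1 or 24 months replicate 1 was left out (log2 fold change -0.41 to -0.36, adjusted p 0.0695 to 0.0696). Kcnj6 had 24.9, 37.3 and 48.2 normalised counts in the P18 samples, 42.1, 40.8 and 34.3 in the P75 samples, 117, 102 and 103 in those of 6 months and 43.6, 75.7 and 93.5 in those of 24 months. Kcnj6 rose at 6 months by 1.44 ± 0.26 (SE, limma adjusted p = 0.000226), and its 24 month samples lay below those of 6 months with a log2 fold change of -0.66 ± 0.26 (SE, limma adjusted p = 0.0821) that did not pass. For Kcnj6 this value passed when P18 replicate 3 or 24 months replicate 3 was left out, with quantile normalization or in a fit of the 2 ages alone (log2 fold change -0.89 to -0.66, adjusted p 0.0385 to 0.0456). Kcnj5, the remaining gene of this group, was read at only 9.51 to 43.1 normalised counts and rose at 6 months by 0.79 ± 0.31 (SE, limma adjusted p = 0.0457). The call of Kcnj5 ended when P75 replicate 1, 2 or 3, 6 months replicate 1 or 2 or 24 months replicate 2 or 3 was left out, without the filter on low values or with the length trend removed (log2 fold change 0.54 to 0.83, adjusted p 0.054 to 0.216).

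Neuronal markers moved in both directions at P75 and at 6 months, with more falls at P75 and more rises at 6 months. Of 13 tested neuron markers, 1 rose and 5 fell at P75, 8 rose and 3 fell at 6 months, and 3 fell at 24 months. The background was 21.7% higher and 18.7% lower at P75, 27.1% and 25.4% at 6 months, and 10.8% and 8.34% at 24 months. The median log2 fold changes of the neuron markers were -0.22, 0.39 and -0.25, against 0.017, 0.0029 and 0.030 over all tested genes. The summed level of these markers was 212682 to 256166 in the P18 samples, 238235 to 268782 in the P75 samples, 235530.5 to 245654 in the 6 month samples and 212486 to 222798 in the 24 month samples. None was at 0. Syt1, a synaptic vesicle calcium sensor, rose at 6 months by 2.34 ± 0.13 (SE, limma adjusted p = 7.34e-09), and Slc17a7, the vesicular glutamate transporter of excitatory neurons, rose by 1.41 ± 0.16 (SE, limma adjusted p = 3.27e-06). Stmn2, a growth-associated tubulin regulator, fell by 0.36 ± 0.09 (SE, limma adjusted p = 0.00392) in the same step. Gad1, the enzyme that makes GABA in inhibitory neurons, was the 1 marker that rose at P75, by 0.62 ± 0.10 (SE, limma adjusted p = 0.00011), where 5 fell. The summed level at 6 months overlapped with that at P75, while the rise of Syt1 was as large as that of Kcnj3, and the part of neuronal RNA in the channel results was not tested.

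Classical strong inward rectifiers and ATP-sensitive channel subunits gave further rises. Kcnj2 had 223, 237 and 270.2 normalised counts in the P18 samples, 307, 247 and 305 in the P75 samples, 492, 400.3 and 421 in those of 6 months and 376, 499.5 and 577 in those of 24 months. Kcnj2, a strong rectifier of neurons and vessels, rose at 6 months by 0.61 ± 0.14 (SE, limma adjusted p = 0.00207) without overlap. Kcnj4, the strong rectifier of forebrain neurons, rose by 0.72 at P75 and 0.81 at 6 months (limma adjusted p = 0.00149 and 0.00036). Kcnj11, the ATP-sensitive pore subunit of neurons, rose at 6 months by 0.57 ± 0.09 (SE, limma adjusted p = 5.16e-05). Kcnj8 had 14.3, 23.7 and 21.1 normalised counts in the P18 samples, 30.1, 25.03 and 37.6 in the P75 samples, 24.4, 27.5 and 18.5 in those of 6 months and 44.6, 50.8 and 34.2 in those of 24 months. Kcnj8, the ATP-sensitive pore subunit of pericytes, was low throughout, had its 24 month samples above those of 6 months, and rose at 24 months by 0.85 ± 0.26 (SE, limma adjusted p = 0.0295). That call of Kcnj8 ended when 6 months replicate 1 or 3 or 24 months replicate 1 or 2 was left out, with quantile normalization or with the length trend removed (log2 fold change 0.68 to 0.89, adjusted p 0.0501 to 0.121). Of 8 mural cell markers none rose and 1 fell at 24 months, and the part of those cells was not tested.

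A pair of channel genes known from choroid plexus epithelium rose at P75 and again at 6 months. Kcnj13 had 46.3, 39.5 and 29.1 normalised counts in the P18 samples, 121, 133 and 85.1 in the P75 samples, 188, 178 and 208 in those of 6 months and 216, 232 and 284 in those of 24 months. Kcnj13, an apical rectifier of epithelia, was higher at each age than at the one before, and rose by 1.53 ± 0.19 (SE, limma adjusted p = 1.37e-05) at P75 and 0.77 ± 0.19 (SE, limma adjusted p = 0.00248) at 6 months. Its 24 month step, 0.35 ± 0.19 (SE, limma adjusted p = 0.204), did not pass. With the length trend removed, the 6 month value of Kcnj13 was 1.26 (adjusted p = 9.22e-05). Gigyf2, on the opposite strand, covers 49.1% of the exon bases of Kcnj13 in GENCODE M21. The strand setting of the counting is not given in the sources used here, so the level of Kcnj13 is uncertain. Kcne2 had 55.9, 41.8 and 27.1 normalised counts in the P18 samples, 83.2, 72.3 and 81.8 in the P75 samples, 123, 108 and 124 in those of 6 months and 129, 173 and 197 in those of 24 months. Kcne2, a KCNE subunit that assembles with Kcnq1 in that epithelium, also ran upward through all 4 ages without overlap, and rose by 0.97 ± 0.21 (SE, limma adjusted p = 0.00197) at P75 and 0.58 ± 0.21 (SE, limma adjusted p = 0.0332) at 6 months. The 24 month step of Kcne2, 0.47 ± 0.21 (SE, limma adjusted p = 0.135), did not pass. It passed when P18 replicate 3 was left out or in a fit of the 2 ages alone (log2 fold change 0.47, adjusted p 0.0399 to 0.0449). The 6 month call of Kcne2 ended when P75 replicate 1, 2 or 3 or 6 months replicate 1 or 3 was left out, without the filter on low values or with quantile normalization (log2 fold change 0.51 to 0.61, adjusted p 0.0516 to 0.101).

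Choroid plexus markers moved with both. Of 9 markers, 6 rose at P75, 7 rose at 6 months, 1 rose at 24 months, and none fell. Their summed level was 19360.4 to 24167 in the P18 samples, 36359 to 40013 in the P75 samples, 44723 to 47676 in the 6 month samples and 60876 to 66525 in the 24 month samples, and none was at 0. Ttr, the thyroid hormone carrier made by this epithelium, rose by 0.90 ± 0.12 (SE, limma adjusted p = 3.46e-05) at P75 and 0.63 ± 0.12 (SE, limma adjusted p = 0.00342) at 24 months, and Kl, a membrane protein of the same cells, rose by 1.13 ± 0.15 (SE, limma adjusted p = 2.93e-05) at P75. The part of choroid plexus RNA in the values of Kcnj13 and Kcne2 was not tested.

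**Figure D5:**
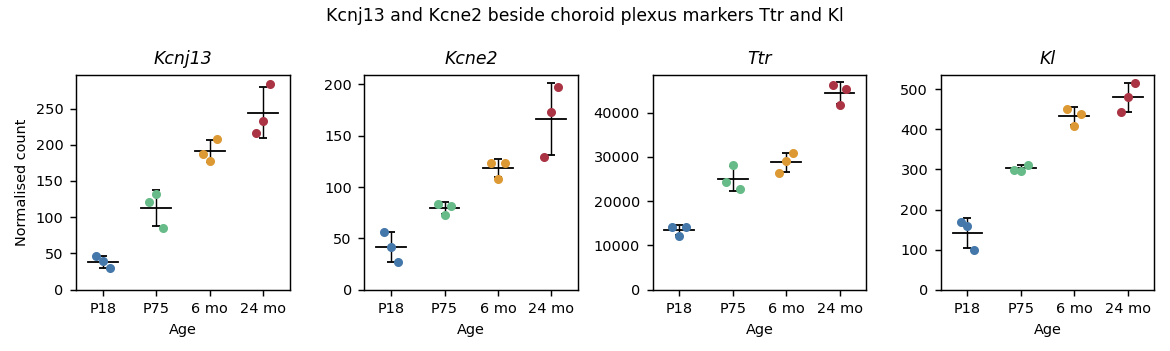
Normalised counts (y axis, each panel with its own scale from 0) of Kcnj13 and Kcne2 and of the choroid plexus markers Ttr and Kl in each sample by age (x axis); points are samples, lines the mean and bars the SD of 3 samples. In all 4 genes the mean was higher at each age than at the one before, as in Kcnj13 at 38.3, 113, 191 and 244.

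Other KCNE subunits were few. Kcne1l had 444, 492 and 348 normalised counts in the P18 samples, 327, 297 and 346 in the P75 samples, 229.9, 272 and 240.4 in those of 6 months and 208, 236 and 247 in those of 24 months. Kcne1l, a KCNE subunit listed as Kcne5 in GENCODE M21, fell by 0.39 ± 0.13 (SE, limma adjusted p = 0.0221) at P75 and by 0.39 ± 0.13 (SE, limma adjusted p = 0.0184) at 6 months, with no overlap in either step. The P75 call of Kcne1l ended when P18 replicate 1 or 2 or P75 replicate 2 was left out or with the GC trend removed (log2 fold change -0.36 to -0.28, adjusted p 0.0694 to 0.118). The 6 month call ended when P75 replicate 3 or 6 months replicate 1 or 3 was left out or with the length trend removed (log2 fold change -0.37 to -0.02, adjusted p 0.0521 to 0.91). The log2 fold change of Kcne1l was -0.02 with the length trend removed (adjusted p = 0.91).

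K2P channels give the background leak that sets resting potential, and of 10 tested 3 rose at P75, 6 rose and 1 fell at 6 months, and 1 (Kcnk9) fell at 24 months. Kcnk1 had 1722, 1873 and 2183 normalised counts in the P18 samples, 2227, 2340.2 and 2361 in the P75 samples, 3409, 3244 and 3244 in those of 6 months and 3384, 3672 and 4175 in those of 24 months. Kcnk1 had the highest value per kilobase of all members when averaged over the 12 samples, 1262 normalised counts, although at P18 it had 862 and Kcnab2 1134. Kcnk1 rose by 0.27 ± 0.10 (SE, limma adjusted p = 0.0351) at P75 and 0.51 ± 0.10 (SE, limma adjusted p = 0.000325) at 6 months, without overlap in either step. The P75 call of Kcnk1 ended when P18 replicate 1 or 2 or P75 replicate 1, 2 or 3 was left out, with scaling to the total without Mbp or in a fit of the 2 ages alone (log2 fold change 0.19 to 0.29, adjusted p 0.0504 to 0.166). Kcnk2 had 952, 982 and 1162 normalised counts in the P18 samples, 1149, 1296 and 1297 in the P75 samples, 1019.6, 965 and 1000.4 in those of 6 months and 1053, 1035 and 1002 in those of 24 months. Kcnk2, a mechanosensitive and lipid-sensitive leak channel, rose at P75 by 0.28 ± 0.09 (SE, limma adjusted p = 0.0195) and fell at 6 months by 0.32 ± 0.09 (SE, limma adjusted p = 0.00558), with P75 samples above all those of 6 months. The P75 call of Kcnk2 ended when P18 replicate 1 or 2 or P75 replicate 2 or 3 was left out, with scaling to the total without Mbp or in a fit of the 2 ages alone (log2 fold change 0.22 to 0.28, adjusted p 0.0524 to 0.0912). Kcnk4 had 46.3, 57.6 and 90.4 normalised counts in the P18 samples, 80.2, 60.3 and 51.96 in the P75 samples, 96.7, 110.1 and 99.3 in those of 6 months and 92.1, 90.8 and 116 in those of 24 months. Kcnk4, a relative of Kcnk2 found at nodes of Ranvier, rose at 6 months by 0.68 ± 0.22 (SE, limma adjusted p = 0.0146) without overlap with P75, while its P18 samples were spread widely. The call of Kcnk4 ended when P75 replicate 3 or 6 months replicate 2 was left out (log2 fold change 0.54 to 0.63, adjusted p 0.0522 to 0.0724).

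Further leak channels had lower values. Kcnk10 had 59.4, 42.9 and 33.1 normalised counts in the P18 samples, 49.1, 54.7 and 46.4 in the P75 samples, 95.05, 63.9 and 78.8 in those of 6 months and 80.2, 82.2 and 78.7 in those of 24 months. Kcnk10, of the same subgroup as Kcnk2 and Kcnk4, rose at 6 months by 0.64 ± 0.20 (SE, limma adjusted p = 0.0145) without overlap with P75, and lost the call when 6 months replicate 1 was left out (0.50, adjusted p = 0.0826). Kcnk13 had 267, 199.99 and 115 normalised counts in the P18 samples, 259.6, 236 and 378 in the P75 samples, 415, 439 and 371 in those of 6 months and 337, 362 and 460.1 in those of 24 months. Kcnk13, known as the resting leak channel of microglia, rose at P75 by 0.64 ± 0.23 (SE, limma adjusted p = 0.0389), although the samples of P18 and P75 overlapped. The call of Kcnk13 ended when P18 replicate 2 or 3 or P75 replicate 1 or 3 was left out, without the filter on low values, with quantile normalization, in edgeR or in a fit of the 2 ages alone (log2 fold change 0.30 to 0.71, adjusted p 0.0515 to 0.191). The log2 fold change of Kcnk13 was 0.30 without P18 replicate 3 (adjusted p = 0.187). Kcnk6 had 64.2, 63.3 and 42.2 normalised counts in the P18 samples, 44.1, 31.5 and 37.6 in the P75 samples, 48.8, 39.1 and 36 in those of 6 months and 42.6, 62.7 and 51.8 in those of 24 months. Samples of Kcnk6 overlapped between consecutive ages, and it did not pass at any age (limma F test, adjusted p = 0.0786). Kcnk6 passed as lower at P75 when P18 replicate 3, P75 replicate 1 or 24 months replicate 1 was left out, with a pseudocount of 5, with quantile normalization, with scaling to the total without Mbp, with TMM scaling or in edgeR (log2 fold change -0.75 to -0.52, adjusted p 0.0111 to 0.0489). It passed for any age when P18 replicate 3 or 24 months replicate 1 was left out or with quantile normalization (adjusted p 0.0184 to 0.0499). Of 10 microglia markers 6 rose at P75, 4 rose and 1 fell at 6 months, and 6 rose at 24 months, where the log2 fold change of Kcnk13 was -0.09 ± 0.23 (SE, limma adjusted p = 0.827) and did not pass. The shares of all tested genes called in either direction were 40.4%, 52.4% and 19.2% in these steps.

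Kcnk9 had 1.19, 3.39 and 5.02 normalised counts in the P18 samples, 3.01, 1.85 and 2.21 in the P75 samples, 34.1, 13.3 and 22.4 in those of 6 months and 7.93, 5.41 and 9.26 in those of 24 months. Kcnk9, an acid-sensitive leak channel, is among the lowest tested members, and its filter was met through the 6 month samples alone. Its log2 fold changes of 2.77 at 6 months and -1.44 at 24 months are descriptions for that reason.

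Kcnq1ot1 is an imprinted antisense RNA that silences neighbouring genes from within Kcnq1, and it makes no channel. Kcnq1ot1 had 389.8, 408 and 477 normalised counts in the P18 samples, 435, 459 and 436 in the P75 samples, 459.8, 470.4 and 505 in those of 6 months and 667, 682 and 849.8 in those of 24 months. Its P18, P75 and 6 month samples lay close together and all 24 month samples lay above them, a rise of 0.61 ± 0.11 (SE, limma adjusted p = 0.00199).

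Potassium is also moved across membranes by the sodium-potassium pump and by cotransport with chloride, and genes of both were followed. Of 9 tested pump genes, 5 rose and 2 fell at P75, 5 rose and 2 fell at 6 months, and 2 rose at 24 months. The beta subunit gene Atp1b3 rose by 1.18 at P75, and the small regulator gene Fxyd7 fell by 0.93 (limma adjusted p = 1.95e-07 and 3.05e-05). Of 8 tested genes of potassium chloride cotransport, 2 rose at P75, 5 rose at 6 months, 1 rose at 24 months, and none fell. Both lists stand beside 40.4%, 52.4% and 19.2% of all tested genes called in either direction in these steps. Slc12a5, the neuronal cotransporter that keeps chloride low, rose by 0.83 at P75 and 0.50 at 6 months (limma adjusted p = 5.87e-05 and 0.00225).

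Ordered by normalised counts per kilobase of merged exon over the 12 samples, the members were led by Kcnk1 at 1262, Kcnab2 at 1059, Kcnj10 at 912, Kcnj4 at 697, Kcnip4 at 655, Kcnip3 at 631, Kcna1 at 615 and Kcnab3 at 592. The order differed between ages, with Kcnab2 first at P18 and Kcnd2 among the first 8 at 6 and 24 months. The exon lengths come from GENCODE M21 and not from the annotation used for the deposited counts.

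The 18 members left out by the filter were low in all samples. Kcnj1, the kidney rectifier, and Kcnk16, a pancreatic leak channel, were read in no sample. Among the others, Kcna3, known from T cells and microglia, had 1 to 11.4 normalised counts, Kcnn4, the intermediate-conductance channel of blood and microglia, had 1.13 to 12.03, and Kcnmb1, the BK beta subunit of smooth muscle, had 1 to 10.2. The highest was Kcnk7, at 1.62 to 13.03. The remaining 12, Kcna7, Kcna10, Kcne1, Kcne3, Kcng3, Kcnh8, Kcnj15, Kcnk15, Kcnk18, Kcnmb3, Kcnv2 and Kcnq1, did not reach 10 in any sample. Without the filter, Kcnk15, with 4.87, 3.55 and 5.84 normalised counts in the 6 month samples and 0 in all P75 samples, passed as higher at 6 months against P75 (limma adjusted p = 5.35e-05). Kcna3 passed as higher in that step, by 1.19 (limma adjusted p = 0.0169), and Kcnk7 as lower, at -1.58 (limma adjusted p = 0.0115). Over the 12 samples Kcnk15, Kcna3 and Kcnk7 had only 25, 61 and 77 reads, and Kcnk15 had no spread at P75, which limits these calls.

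Some members share exon bases with a gene on the opposite strand in GENCODE M21, which matters where counting ignores strand. Kcna6, Kcnj3 and Kcnmb4 share 39.6%, 31.1% and 20.9% of their exon bases with an antisense or intergenic transcript for which no value was used here. Kcnk2 and Kcnk1 share 12.2% and 8.01% with antisense transcripts, and Kcnmb4 shares 10.7% with a further one, again without values used here. Kcnh7 shares 4.57% with Gca, which has values of its own. On the same strand, Kcnk4 shares 13.15% with Catsperz, for which no value was used, and this overlap does not depend on the strand setting. The levels of these genes are uncertain to that extent.

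Of the 31 calls at P75, 22 held in every alternative of the processing that gave a p-value, of the 60 at 6 months 49 held, of the 15 at 24 months 3 held, and of the 73 for any age 65 held. None changed direction. Without P18 replicate 3, 37 genes passed at P75, 64 at 6 months and 25 at 24 months.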

How the data were processed

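The deposited table gives 1 signal value per gene and sample, a read count that the authors divided by a size factor, and the submitters' processing notes name TopHat, HTSeq, DESeq and the build mm9 without versions. In each of the 12 columns 100% of values were whole multiples of 1 step within 0.0061, which gave back the whole reads (in 3 columns, where 1 read is worth within 1% of 1, the step was fitted over all values). Depth was 20299052 to 27214385 reads per sample. RNA extraction, library construction, strand setting and batches are not given in the sources used here, and no batch could be checked.

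Genes with a value of at least 10 in at least 3 of 12 samples were tested (14987 of 21937) on log2(value + 1) by limma 3.58.1 (R 4.3.3) with its variance trend, in 1 fit over all 12 samples in 4 age groups. Two-sided p-values were adjusted over all tested genes by Benjamini-Hochberg (threshold 0.05). Consecutive comparisons share the samples of the middle age. edgeR 4.0.16 and DESeq2 1.42.0 ran on the recovered reads as alternatives, among 23 planned and 2 added after seeing the data. The fit was tested on simulated data.

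The members and lists were chosen with earlier results of these data known. Values in every sample were given for the 6 largest rises and 6 largest falls per comparison among genes that passed with a mean of at least 50, the 8 highest means and a set of 30 members, and up to 4 genes per list were named. A few other genes were named after their values were seen. Some genes that these rules name are not reported here. Exon lengths and overlaps of all 95 members, and coding sequences of 94, came from GENCODE M21 (GRCm38) by symbol, 1 of them through a synonym. No samples of an age were identical or within counting noise of each other.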

Additional observations from a re-analysis of the deposited data

How the results depend on the processing

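Of the counts of channel genes called, those at P75 against P18 (31) and at 6 months against P75 (60) stayed within 1.5 times in all 25 alternatives, and that for any age (73) in the 24 that hold all ages. Of the 31, those lower at P75 were 4, and 2 without P18 replicate 2. The count at 24 months against 6 months (15) was 25 in a fit of the 2 ages alone and 3 to 25 when 1 sample was left out, with 25 without P18 replicate 3, 3 without 6 months replicate 1 and 4 without 24 months replicate 1. Its split of 6 higher and 9 lower became 5 and 12 with quantile normalization, 9 and 9 in edgeR, and 3 and 1 without 24 months replicate 1. The cause was not tested. No call of a named gene changed direction. With the replicate number as a block, 31, 59 and 12 genes passed in the 3 comparisons and 72 for any age. The block ended the 24 month calls of Kcnc1, Kcnip1 and Kcnip3 (adjusted p = 0.0666, 0.0592 and 0.0725), the 6 month call of Kcnj5 (0.0544) and the P75 call of Kcnk13 (0.053). Samples with the same number did not deviate together (r from -0.185 to 0.165, median -0.043, over 0.1 in 3 of 18 pairs), so the numbers were not taken to pair the samples. No scaling moved the median of all genes by over 0.1 on the log2 scale. Members under the filter had few reads per sample, which limits the precision of their values, and without the filter Kcnk15, Kcna3 and Kcnk7 passed at 6 months against P75. Removing a trend with length or GC content left the counts within 1.5 times.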
